A study of Mus musculus with 12 samples.

Results

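The effect of an iron salt on cultured mouse liver cells was examined in the absence of macrophages. The comparison set the 3 arrays of the group FAC against the 3 arrays of the group alone, 6 of the 12 arrays of the study, over 18194 genes, all of those measured. BNL CL.2 is an established mouse line of liver origin. In the group alone, the insert above the cells held the same line and no iron was added over 24 h of culture. In the group FAC they were cultured for 24 h with 100 micromolar FAC, which is ferric ammonium citrate, a soluble iron salt. The 2 further groups, RAW and RAW_FAC, had RAW 264.7 cells, a mouse macrophage line, in the insert without and with the same dose of iron, and serve here as a second comparison of iron with no iron that shares no array with the first. All 12 arrays come from 1 cell line at 1 time and 1 dose, and the labels do not say whether the replicates were separate cultures, so a p-value here speaks of the spread among these arrays, which may be technical.

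Cells sense iron through iron regulatory proteins, which bind the mRNAs of iron genes when iron is scarce. Binding stabilises the mRNA of the transferrin receptor and blocks translation of ferritin, so that iron lowers the receptor mRNA and raises ferritin mainly as protein. In hepatocytes iron also acts through bone morphogenetic proteins (BMP) and SMAD factors on hepcidin, the hormone that closes the iron exporter. Iron that is not stored can feed the formation of reactive oxygen species, and the transcription factor NRF2 answers oxidants by raising genes of glutathione, thioredoxin and quinone metabolism.

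Signals are log2 values, so a difference of 1 is a doubling. A same-number pair is 1 array of each group with the same replicate number in its title. Each difference is the mean of FAC minus the mean of alone (n = 3 arrays per group), and its standard error (SE) comes from the limma fit with the replicate number as a block. A gene passed where its Benjamini-Hochberg adjusted p over the 18194 genes was under 0.05. Of the hepatocyte markers 3 of 9 lay above the median gene (6.82). Hnf4a, a transcription factor of hepatocytes, had a signal of 10.39 to 10.75 over the 6 arrays and Afp, the fetal liver protein, 8.30 to 9.60, whereas Alb, the main secreted protein of adult hepatocytes, lay at 5.08 to 5.38. Of the biliary markers 2 of 4 lay above the median gene, with Krt19, a bile duct keratin, at 13.28 to 13.54. The counts were 1 of 8 for stellate cell and fibroblast markers, 1 of 9 for macrophage markers and 0 of 4 for endothelial markers. The brightest stellate cell and fibroblast marker had a mean of 14.14 over the 12 arrays. That of the biliary markers was 13.32, of the macrophage markers 12.04 and of the hepatocyte markers 11.82, so the lists do not single out 1 cell type. The summed macrophage signal was 12.04 to 12.22 in alone and 12.02 to 12.24 in FAC, close to that of its brightest member alone.

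Tfrc, the transferrin receptor gene, and the chemokine gene Ppbp fell with iron, and Blvrb, Slc7a11, Sqor and Serpinb1b rose, in the fit with the replicate block. With the replicate block, 4 genes were higher (0.022% of those tested) and 2 were lower (0.011%). An unadjusted p under 0.05 was reached by 551 of the 18194 genes without the block and by 1196 with it. On average a share of 0.05 of genes would reach it if none differed, so neither number is a count of changed genes. Without the block, which was the planned fit, limma called no gene (0.0%), Tfrc included. With the replicate number as a random block, which estimates the correlation of same-number arrays, no gene passed either (smallest adjusted p = 0.0817). Differences were mostly small: 24 genes were higher by at least 0.5 and 14 lower, and Tfrc and Gsta2 alone reached 1. FAC was above alone in 3 of 3 pairs for 2432 genes (13.4%) and below it for 2697 (14.8%). The 3 FAC arrays lay above the 3 alone arrays for 681 genes (3.74%) and below them for 695 (3.82%). These shares over all genes are the background for the counts of the gene lists below.

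Tfrc encodes the receptor that carries transferrin-bound iron into the cell. Its signal was 13.28, 13.29 and 13.11 in alone replicates 1 to 3 and 12.35, 12.14 and 11.46 in FAC. The groups did not overlap, and FAC replicate 3 was the lowest array. Tfrc fell by 1.25 ± 0.13, a 2.37-fold difference (adjusted p = 0.0242, limma with the block). It lay at the 97.6th percentile of gene signals.

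Tfrc is measured by 6 probe sets, and the size of its difference depended on the probe set. The array carries control probe sets for the 5′ part, the middle and the 3′ part of this mRNA. The 5′ set differed by -1.54, the middle set by -0.98 and the 3′ set by -0.27. The same order held in each of the 3 pairs: the 5′ set gave -1.01, -1.81 and -1.80 and the 3′ set -0.04, -0.33 and -0.44. With macrophages the order from 5′ to 3′ was also the same, at -1.32, -0.90 and -0.29. The 2 remaining sets beside the one used for the gene differed by -1.34 and -0.32. In the control genes the 3′ minus 5′ signal differed between the groups by -0.017 for Gapdh (exact permutation test, two-sided, p = 0.7) and by 0.0171 for beta-actin (p = 0.5), where 0.1 is the smallest p that 3 arrays against 3 allow.

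**Figure D1:**
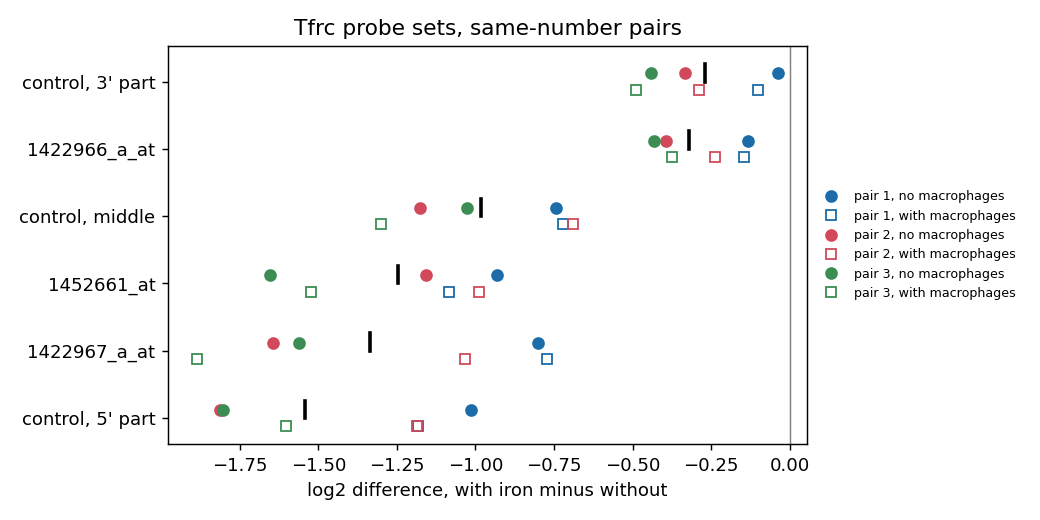
Log2 difference with iron minus without (x axis) of the 6 Tfrc probe sets (y axis) in the 3 same-number pairs without macrophages (filled circles) and with them (open squares); black bars are means without macrophages. The difference runs from -1.54 in the 5′ control set to -0.27 in the 3′ control set, and all points lie below 0.

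Blvrb, a reductase that acts on biliverdin, the product of heme breakdown, and on flavins, gave the second smallest p. Its signal was 9.56, 10.09 and 10.02 in alone and 10.12, 10.80 and 10.49 in FAC. Every FAC array was above every alone array, and replicate 1 was the lowest in both groups. Blvrb rose by 0.58 ± 0.06, or 1.49-fold (adjusted p = 0.0270).

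Slc7a11, the light chain of the exchanger that brings cystine into the cell in return for glutamate, showed the largest rise among the genes that passed. Its signal was 6.33, 7.44 and 7.24 in alone and 7.40, 8.33 and 7.79 in FAC. Alone replicate 2 was above FAC replicate 1, so the groups overlapped, while each pair was higher with iron, by 1.07, 0.89 and 0.55. The rise was 0.83 ± 0.11, or 1.78-fold (adjusted p = 0.0436), and a second probe set gave 0.59.

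Sqor, a mitochondrial enzyme that oxidises hydrogen sulfide, was at 9.84, 10.63 and 10.65 in alone and at 10.25, 11.13 and 10.97 in FAC. The groups overlapped, since replicate 1 was far lower than the other arrays in both. The pairs gave 0.40, 0.49 and 0.33, and Sqor rose by 0.41 ± 0.05 (adjusted p = 0.0436), although its second probe set gave -0.06.

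Serpinb1b, a member of the clade B family of serine protease inhibitors, had signals of 6.34, 7.22 and 7.03 in alone and 7.08, 7.79 and 7.67 in FAC. It rose by 0.65 ± 0.08 (adjusted p = 0.0436), with pair differences of 0.74, 0.57 and 0.64. Here too replicate 1 was lowest in both groups, and the groups overlapped.

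Ppbp, a chemokine of the CXC family, was at 9.81, 10.46 and 10.37 in alone and at 9.36, 9.69 and 9.92 in FAC. FAC replicate 3 was above alone replicate 1, so the groups overlapped. Ppbp fell by 0.56 ± 0.07 (adjusted p = 0.0460) and was lower by 0.45, 0.78 and 0.45 in the 3 pairs.

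**Figure D2:**
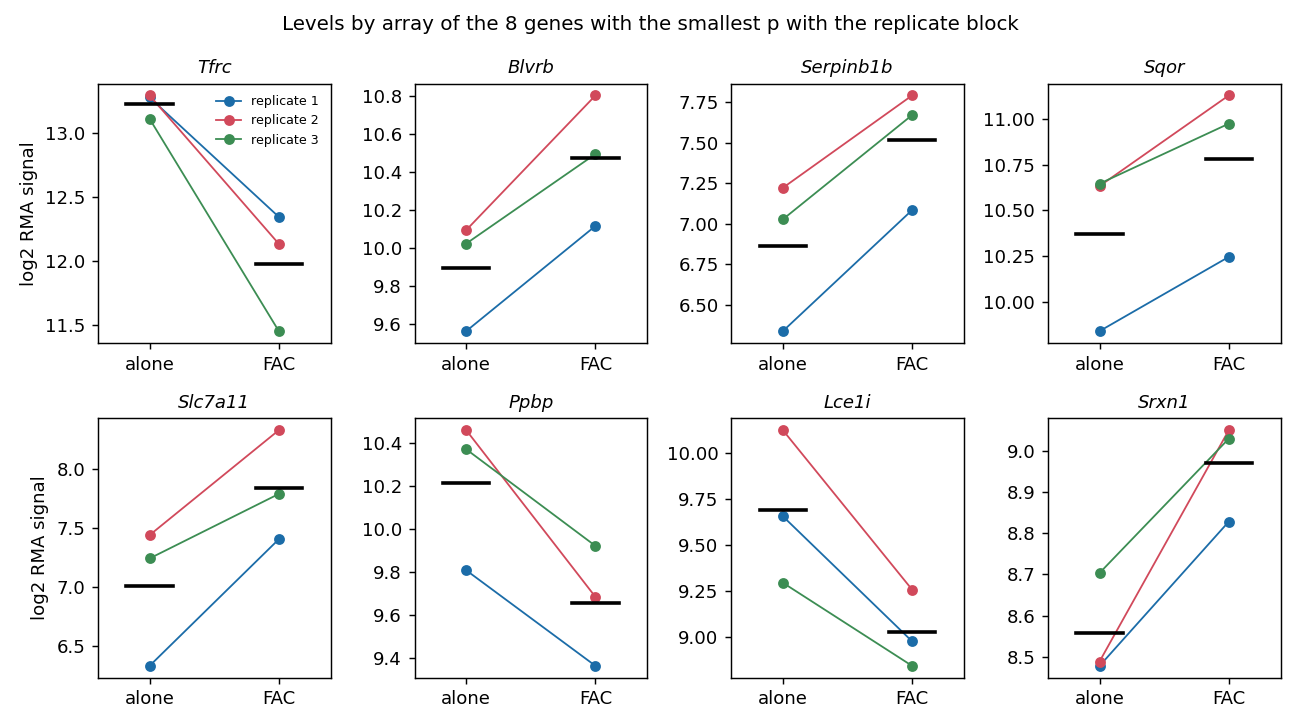
Log2 signal (y axis) on each array of alone and FAC (x axis) for the 8 genes with the smallest p with the replicate block; lines join same-number arrays and black bars are group means of 3 arrays. Tfrc, Blvrb, Lce1i and Srxn1 show no overlap of the groups, and in Blvrb, Serpinb1b, Sqor, Slc7a11, Ppbp and Srxn1 replicate 1 lies below the other 2 arrays of its group.

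The calls rest on few arrays and on the other groups of the fit. Each of the 12 arrays was left out in turn, with the block. Tfrc passed in 8 of 12 fits, Blvrb in 3, Serpinb1b in 2 and Slc7a11 in 1, and Sqor and Ppbp in 0. Leaving out a RAW or RAW_FAC array does not change the difference between FAC and alone. All passes of Blvrb were of that kind, and without a FAC or alone array its adjusted p was 0.0623 to 0.245 (limma with the block). Tfrc did not pass without FAC replicate 1, 2 or 3 or without alone replicate 2. With the 6 arrays of alone and FAC only, no gene passed (smallest adjusted p = 0.19).

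The next genes by p included further genes of glutathione and heme metabolism. When genes with a mean below 6.82 were left out, which kept 9097 genes, 13 higher and 3 lower genes passed with the block. The additions were Srxn1, Gclc, Slc48a1, Abcc4, Pir, Entpd5, Elovl6, Gsta2, Idh1 and Lce1i. Srxn1 is sulfiredoxin, which repairs over-oxidised peroxiredoxins, and its signal of 8.48, 8.49 and 8.70 in alone against 8.83, 9.05 and 9.03 in FAC did not overlap (0.41 ± 0.06, adjusted p = 0.0883 over all genes). Its other probe sets gave 0.35, 0.11 and 0.07. Pir, an iron-binding nuclear protein, was at 8.79, 9.25 and 9.24 in alone and at 9.32, 9.73 and 9.69 in FAC, also without overlap (0.48 ± 0.08, adjusted p = 0.0953). Entpd5, a nucleotidase of the endoplasmic reticulum that aids glycoprotein folding, differed by 0.52 ± 0.08, but its 6 probe sets ran from -0.12 to 0.52.

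The 12 genes with the smallest p that were higher in 3 of 3 pairs, and the 12 that were lower, held further genes. The remaining higher ones were Klhl30, of the kelch-like family, at 0.41 ± 0.06, and Prg4, which encodes lubricin, at 0.52 ± 0.08. The lower genes included Egr1, an immediate early transcription factor, at -0.55 ± 0.11, and Dbp, an output factor of the circadian clock, at -0.29 ± 0.06. Tlr1, a receptor for bacterial lipoproteins, differed by -0.32 ± 0.05, and Adam12, a membrane protease, by -0.41 ± 0.08. Gzme, a granzyme, Zfp750, a factor of epidermal differentiation, Mir155hg, the host gene of a microRNA, and Cpn1, a carboxypeptidase subunit, lay between -0.46 and -0.27. A second Cpn1 probe set gave -0.007. None of these 10 genes passed over all genes, and the lower ones had adjusted p up to 0.290.

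Genes of the cornified envelope, the protein shell of stratified epithelium, were also among the lower ones. Lce1i, a late cornified envelope gene, was at 9.66, 10.12 and 9.30 in alone and at 8.98, 9.26 and 8.84 in FAC (-0.67 ± 0.09, adjusted p = 0.0678); its probe set may bind related genes. Sprr1b, a small proline-rich protein, was at 8.77, 9.34 and 8.21 in alone and at 8.30, 8.43 and 7.60 in FAC (-0.66 ± 0.11). Both were lower in each pair. The list as a whole was mixed, with a median of -0.05. Of 24 genes 7 were lower in 3 of 3 pairs and 2 were higher, against 14.8% and 13.4% of all genes.

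Apart from Tfrc, no gene of iron uptake, storage and export passed, and their differences ran up to 0.42. Of 26 such genes 7 were higher (26.9%) and 5 lower (19.2%) in 3 of 3 pairs, against 13.4% and 14.8% of all genes. Their median was 0.01. Slc11a2, which carries ferrous iron across membranes, was at 8.67, 8.56 and 8.54 in alone and at 8.39, 8.53 and 8.35 in FAC. These groups did not overlap, with a difference of -0.17 ± 0.06, and its 3 other probe sets gave -0.41, -0.34 and 0.01. Ncoa4, the receptor that delivers ferritin for degradation, was at 11.37, 11.56 and 11.61 in alone and at 11.55, 11.76 and 11.77 in FAC, a nearly equal step in each pair (0.18 ± 0.05). Cp, the copper ferroxidase ceruloplasmin, differed by 0.34 ± 0.08, with 0.48, 0.38 and 0.17 in the 3 pairs. Its other probe sets ran from -0.08 to 0.37. Slc40a1, which encodes the iron exporter ferroportin, lay at 4.66 to 4.74 in alone and at 4.82 to 5.01 in FAC, well below the median gene. Fth1, the ferritin heavy chain, lay between 14.23 and 14.38 on the 6 arrays, close to the highest signal of the arrays (14.6), and differed by 0.04 ± 0.05. Epas1, which encodes the hypoxia factor HIF2α, was lower in each pair without overlap, at 6.88, 6.65 and 6.62 against 6.29, 6.46 and 6.39 (-0.33 ± 0.09); its second probe set gave -0.04.

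The mRNAs of 3 regulators of Tfrc and ferritin were level; their protein and activity were not measured. Aco1 and Ireb2, which encode the 2 iron regulatory proteins, each differed by 0.02 ± 0.05, and Fbxl5, the iron-sensing subunit of the ligase that removes Ireb2, by 0.04 ± 0.06; these 3 genes were chosen after their values were seen. Mitochondrial iron and iron-sulfur genes had a median of -0.02. In 3 of 3 pairs 3 of 19 were higher and 3 lower (15.8% each), near the shares of all genes (13.4% and 14.8%).

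The hepcidin gene had a low signal, and most BMP-SMAD genes, a list of ligands, receptors, SMAD factors, inhibitors and targets, had differences below 0. Hamp lay between 4.66 and 4.88 on the 6 arrays, at a difference of 0.06 ± 0.07. Of the 25 BMP-SMAD genes 21 were below 0, 11 were lower in 3 of 3 pairs and 0 were higher, with a median of -0.10 against -0.00 for all genes; none passed. Id3, a target of SMAD1 and SMAD5, was at 10.95, 11.15 and 10.53 in alone and at 10.59, 10.79 and 10.21 in FAC. Its pairs gave -0.36, -0.36 and -0.32, while the groups overlapped (-0.35 ± 0.09). The SMAD inhibitors Smad6 and Smad7 differed by -0.20 ± 0.08 each, Atoh8, a further target, by -0.24 ± 0.10 and Smad1 by -0.14 ± 0.05. Bmp6, the ligand that answers liver iron in vivo, lay at 4.31 to 4.71 and differed by -0.10 ± 0.09, with 0.22 in pair 3 against -0.23 and -0.30.

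Most genes of cystine import and glutathione synthesis were higher with iron. Of these 13 genes 9 were higher in 3 of 3 pairs and 1 lower, with a median of 0.30 (0.23, 0.33 and 0.25 in the 3 pairs), and Slc7a11 passed. Replicate 1 was the lowest array in both alone and FAC for 69.2% of this list and 66.7% of the NRF2 enzymes below, against 15.5% of all genes; its part in these values was not tested. Gclc, the catalytic subunit of the enzyme that joins glutamate to cysteine, was at 11.50, 11.76 and 11.69 in alone and at 11.94, 12.10 and 11.99 in FAC, without overlap (0.36 ± 0.05, adjusted p = 0.0889). Gclm, its regulatory subunit, differed by 0.30 ± 0.06. Slc3a2, the heavy chain that partners Slc7a11, was at 0.32 ± 0.09, Cth, which makes cysteine from cystathionine, at 0.43 ± 0.09, and the exporter Abcc4 at 0.43 ± 0.07. The 2 members below 0 act in the same chemistry: Gss, which adds glycine, and Cbs, which makes cystathionine.

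Enzymes under NRF2 followed. All 18 genes of this list had differences above 0, 14 were higher in 3 of 3 pairs, the median was 0.14, and Blvrb passed. Nqo1, a quinone reductase, was at 5.75 to 6.33 in alone and at 6.498 to 6.58 in FAC; the FAC arrays all lay above the alone arrays (0.52 ± 0.09, adjusted p = 0.1003). Idh1, which makes NADPH in the cytosol, differed by 0.50 ± 0.08. The thioredoxin gene Txn1, from the same list, was at 0.03 and Txnrd1, thioredoxin reductase, at 0.16, both chosen after their values were seen. Over the 31 genes of both lists, 23 were higher in 3 of 3 pairs and 21 in all 6 pairs with and without macrophages, against 753 of all genes (4.14%) in the 6 pairs.

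Gsta2, a glutathione S-transferase that conjugates glutathione to lipid peroxidation products, had the largest positive difference of all genes. Its signal was 8.26, 10.16 and 10.00 in alone and 9.92, 11.04 and 10.63 in FAC. Replicate 1 was much lower than the other 2 in alone, and its pair gave 1.66 against 0.88 and 0.63. The mean difference was 1.06 ± 0.17, or 2.08-fold (adjusted p = 0.0953); near-identical family members may share its probes. Across the 21 glutathione S-transferases 8 were higher and 3 lower in 3 of 3 pairs, against 13.4% and 14.8% of all genes. Their median was 0.02. Aldh3a1, an aldehyde dehydrogenase, showed the same layout, at 10.98, 12.15 and 12.21 in alone against 11.93, 12.71 and 12.46 in FAC (0.59 ± 0.14).

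Among heme genes the larger differences lay in transport and breakdown. Beside Blvrb, Slc48a1, which carries heme out of lysosomes, was at 9.57, 9.88 and 9.94 in alone and at 10.11, 10.42 and 10.30 in FAC, without overlap (0.48 ± 0.07, adjusted p = 0.0889). Hmox1, heme oxygenase, was at 8.94, 9.43 and 9.12 in alone and at 9.31, 10.10 and 9.58 in FAC, with overlap (0.50 ± 0.11). Abcb6, a porphyrin transporter, differed by 0.30 ± 0.07. The enzymes of heme synthesis were nearer 0, from Ppox at -0.09 to Cpox at 0.17, with Alas1, the first step, at -0.01 ± 0.08; these 3 were chosen after their values were seen. Of all 20 heme genes 11 were higher in 3 of 3 pairs and 0 lower, with a median of 0.08.

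**Figure D3:**
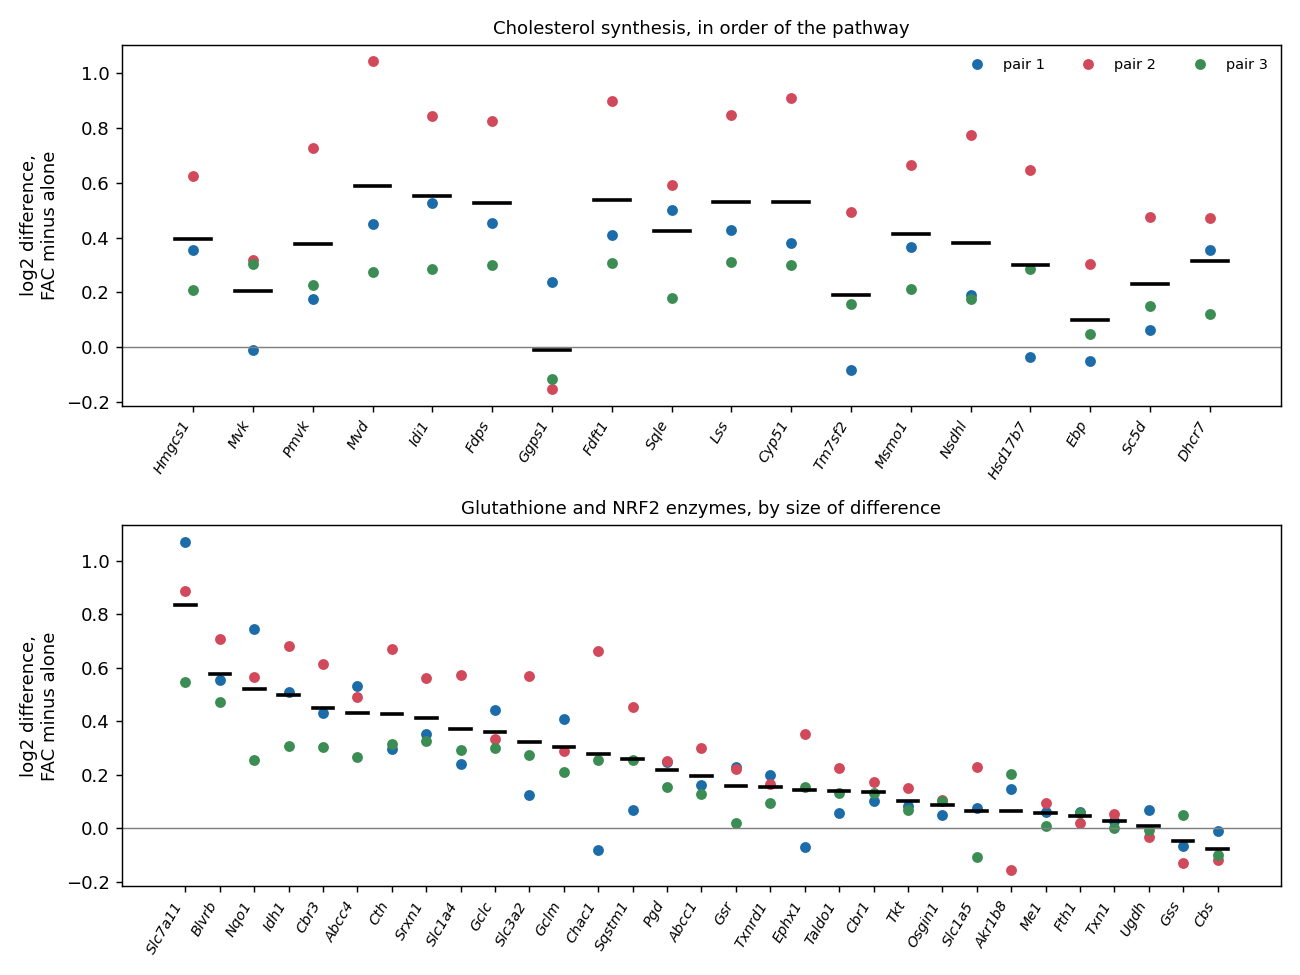
Log2 difference FAC minus alone (y axis) of each gene (x axis) in the 3 same-number pairs (points) and on average (bars). In the upper panel 17 of 18 cholesterol genes have a mean above 0 and pair 2 is the highest pair for most; in the lower panel 29 of 31 glutathione and NRF2 genes have a mean above 0.

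Cholesterol synthesis was higher along nearly the whole pathway, although no member passed. Of 18 enzymes 17 had a difference above 0, 13 were higher in 3 of 3 pairs and 6 had FAC arrays that all lay above the alone arrays. Over all genes 8698 of 18194 were above 0. Among these 18194, 13.4% were higher in 3 of 3 pairs and 3.74% had all FAC arrays above alone. The median of the 18 enzymes was 0.39, and 0.35, 0.66 and 0.22 in the 3 pairs. The median was 0.46 over 8 genes up to squalene and 0.35 over 10 genes after it, and the difference between these parts was not tested. Early in the path Hmgcs1, which makes HMG-CoA, was at 12.03, 12.03 and 12.49 in alone and at 12.39, 12.66 and 12.70 in FAC (0.40 ± 0.08, adjusted p = 0.177). Mvd, which makes isopentenyl diphosphate, had the largest mean difference of the pathway, 0.59 ± 0.12, with 1.04 in pair 2 against 0.45 and 0.27. Idi1, the next enzyme, was at 11.82, 11.76 and 12.20 in alone and at 12.35, 12.60 and 12.49 in FAC, without overlap (0.55 ± 0.10).

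At and after squalene, Fdft1, which makes it, differed by 0.54 ± 0.11 and Sqle, which oxidises it, by 0.42 ± 0.08. The other Fdft1 probe sets gave 0.45, 0.07 and 0.07. Lss, which closes the sterol rings, was at 9.54, 9.26 and 9.92 in alone and at 9.96, 10.11 and 10.23 in FAC (0.53 ± 0.09, adjusted p = 0.132), without overlap. Cyp51, which removes a methyl group from lanosterol, was at 0.53 ± 0.11 and Dhcr7, the last step, at 0.32 ± 0.09. The exception was Ggps1, which diverts the path to geranylgeranyl groups, at -0.01 ± 0.08. Insig1, the endoplasmic reticulum protein that holds back sterol-regulatory factors and is itself one of their targets, was at 8.85, 8.85 and 9.65 in alone and at 9.68, 9.77 and 9.94 in FAC. All FAC arrays were above all alone arrays, alone replicate 3 being close to them (0.68 ± 0.12, adjusted p = 0.109). The genes for the factors themselves were nearer 0, with Srebf2 at 0.11 ± 0.06 and Srebf1 at 0.07 ± 0.05, both chosen after their values were seen, and the cholesterol exporter Abcg1 was at -0.23 ± 0.06.

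Fatty acid genes followed with smaller values: 14 of 22 were higher in 3 of 3 pairs and 1 lower, with a median of 0.13. Elovl6, which lengthens palmitate, was at 9.67, 9.68 and 10.32 in alone and at 10.12, 10.29 and 10.54 in FAC (0.43 ± 0.07, adjusted p = 0.1003). Lpin1, a phosphatidate phosphatase, differed by 0.40 ± 0.09. In both genes alone replicate 3 was the highest array of its group and overlapped FAC.

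The DNA just before the start sites of genes named above and of the chaperone gene Hspa5 was read from RefSeq (build GRCm38.p6, the 250 bases before each start), to show which known motif letters they hold. Motifs were searched on both strands, and matches are in capitals. The search covered the sterol response element TCACNCCAC, the CCAAT box, the antioxidant response element core TGACNNNGC, the amino acid response element TGATGNAAN, CCACG, part of the endoplasmic reticulum stress element, and the BMP response element GGCGCC; no 2 of the matches shown overlap. Shown are 3 cholesterol genes, Hmgcs1 (chr13:119690101-119690350, + strand), Idi1 (chr13:8885356-8885605, + strand) and Lss (chr10:76531355-76531604, + strand); 2 glutathione genes, Gclm (chr3:122245307-122245556, + strand) and Slc7a11 (chr3:50443614-50443863, - strand); and Hspa5 (chr2:34771840-34772089, + strand). In the first 3 the capitals mark the CCAAT box, which reads ATTGG on the other strand, and in Hmgcs1 also the sterol response element; in Gclm they mark the antioxidant core, in Slc7a11 a pair of amino acid response elements facing each other, and in Hspa5 the CCAAT box and CCACG. Other motifs are not marked in these lines.
Hmgcs1: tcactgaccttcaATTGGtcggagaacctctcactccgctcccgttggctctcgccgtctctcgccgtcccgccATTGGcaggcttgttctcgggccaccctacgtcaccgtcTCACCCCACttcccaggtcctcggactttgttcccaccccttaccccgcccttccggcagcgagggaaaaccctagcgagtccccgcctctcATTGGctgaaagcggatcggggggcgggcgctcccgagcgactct
Idi1: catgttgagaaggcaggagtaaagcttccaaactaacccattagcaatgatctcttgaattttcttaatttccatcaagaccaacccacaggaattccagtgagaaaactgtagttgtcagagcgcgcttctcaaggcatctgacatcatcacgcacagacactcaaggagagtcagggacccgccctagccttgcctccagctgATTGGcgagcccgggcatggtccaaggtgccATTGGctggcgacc
Lss: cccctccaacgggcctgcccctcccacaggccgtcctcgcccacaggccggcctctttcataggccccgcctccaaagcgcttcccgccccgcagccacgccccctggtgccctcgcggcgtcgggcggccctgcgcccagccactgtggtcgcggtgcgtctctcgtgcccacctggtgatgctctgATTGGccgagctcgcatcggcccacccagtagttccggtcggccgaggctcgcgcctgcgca
Gclm: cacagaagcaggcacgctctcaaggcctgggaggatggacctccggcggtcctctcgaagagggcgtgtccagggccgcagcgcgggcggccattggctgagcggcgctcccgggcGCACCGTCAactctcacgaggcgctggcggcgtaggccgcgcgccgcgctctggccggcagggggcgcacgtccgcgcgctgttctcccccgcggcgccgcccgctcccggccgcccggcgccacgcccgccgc
Slc7a11: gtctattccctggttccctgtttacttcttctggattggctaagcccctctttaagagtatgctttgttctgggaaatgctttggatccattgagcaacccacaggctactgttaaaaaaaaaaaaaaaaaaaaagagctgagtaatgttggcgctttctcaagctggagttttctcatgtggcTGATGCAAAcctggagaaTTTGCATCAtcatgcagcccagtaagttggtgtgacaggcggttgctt
Hspa5: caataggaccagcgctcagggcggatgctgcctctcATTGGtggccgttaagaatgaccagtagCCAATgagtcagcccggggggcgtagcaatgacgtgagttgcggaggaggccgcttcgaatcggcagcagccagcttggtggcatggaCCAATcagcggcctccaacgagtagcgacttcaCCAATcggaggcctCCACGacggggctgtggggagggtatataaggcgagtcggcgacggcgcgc

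A CCAAT box was present before 15 of 15 cholesterol genes with a sequence in the table, against 37.5% of all 27025 promoters, and before 19 of 22 chaperone genes. The sterol response element in the letters searched was present in 1 of the 15, Hmgcs1, against 1.23% of all promoters. CCACG was found in 17 of 22 chaperone genes, against 31.0%, and TGATGNAAN in 8 of 25 genes of the amino acid response, against 3.89%. The antioxidant core was found in 2 of 8 glutathione genes and 2 of 18 NRF2 enzymes, against 11.5%, and GGCGCC in 7 of 18 BMP-SMAD genes, against 10.9%. Shares of this size were not particular to these lists, and other lists had few matches. CCACG was also found in 7 of 9 sterol genes after squalene and 13 of 18 NRF2 enzymes, but in 0 of 23 cornified envelope genes. The CCAAT box was found in 18 of 23 cell cycle genes and 3 of 17 acute phase genes. GGCGCC was found in 3 of 8 glutathione genes and 0 of 23 cornified envelope genes. These are matches of letters in a window, not binding sites.

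Genes that fold proteins in the endoplasmic reticulum were higher in most pairs, with no member past the test. Of 26 genes 25 had a difference above 0 and 19 were higher in 3 of 3 pairs, with a median of 0.22 (0.20, 0.30 and 0.10 in the 3 pairs). Hspa5, the chaperone BiP, was at 13.25, 13.85 and 13.78 in alone and at 13.54, 14.14 and 13.91 in FAC (0.24 ± 0.06). Sdf2l1, a partner of BiP, differed by 0.59 ± 0.13, Herpud1, of the degradation machinery, by 0.48 ± 0.11 and Creld2 by 0.44 ± 0.10. In this list replicate 1 was the lowest array in both alone and FAC for 24 of 26 genes, against 15.5% of all genes.

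The amino acid response under ATF4 was less even over the pairs. Of 29 genes 12 were higher in 3 of 3 pairs and 1 lower, with medians of -0.01, 0.26 and 0.11 in pairs 1, 2 and 3 and of 0.10 overall. Trib3, a pseudokinase induced by ATF4, was at 8.08, 8.88 and 8.94 in alone and at 8.35, 9.78 and 9.43 in FAC (0.55 ± 0.10, adjusted p = 0.177). Ddit3, which encodes CHOP, was at 8.99, 9.82 and 9.54 in alone and at 8.98, 10.56 and 9.76 in FAC, so that pair 1 showed no step (0.32 ± 0.13). Without FAC replicate 2, in the fit without the block, its difference was -0.0809. A second Ddit3 probe set gave 0.24, 0.37 and 0.49 in pairs 1, 2 and 3.

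Among inflammatory genes, Ccl20, a chemokine, was at 8.19, 9.58 and 9.54 in alone and at 8.59, 10.76 and 10.04 in FAC (0.69 ± 0.17). Saa3, an acute phase protein, was at 5.84, 6.14 and 6.59 in alone and at 6.52, 6.71 and 7.30 in FAC, with 0.56 to 0.71 in the 3 pairs (0.65 ± 0.12, adjusted p = 0.177). Both overlapped between the groups. The lists around them were near 0, with medians of 0.05 for 17 chemokines, 0.04 for 21 acute phase genes and 0.02 for 22 interferon genes. Of 21 genes tied to ferroptosis, the death by lipid peroxides, 6 were higher and 3 lower in 3 of 3 pairs. The shares of all genes were 13.4% and 14.8%. Gpx4, which reduces lipid peroxides, differed by 0.02 ± 0.05 at 13.25 to 13.37.

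For targets of p53 the 3 pairs differed. The median of 16 genes was -0.38 in pair 1, 0.06 in pair 2 and 0.00 in pair 3. Mdm2, the ligase that removes p53, was at 12.23, 11.51 and 11.51 in alone and at 11.44, 11.48 and 11.50 in FAC: alone replicate 1 was high and the other 5 arrays were level. Pmaip1, which promotes cell death, gave -0.91, -0.10 and 0.07 in the 3 pairs. Alone replicate 1 was the highest of its group for 13 of 16 of these genes, and RAW replicate 1 for 12 of 16. FAC replicate 1 was the lowest of its group for 11 of 16 and RAW_FAC replicate 1 for 13 of 16, and pair 1 with macrophages had a median of -0.37. The histone genes H2bc18 and H3c11, chosen after their values were seen, were also highest in alone replicate 1 among the alone arrays. They gave -2.31 and -1.64 in pair 1 and -0.37 to -0.12 in pairs 2 and 3. FAC replicate 1 was not the lowest of its group for either gene. Without pair 1 the p53 median was 0.03. In pair 1 the control probe sets for 18S ribosomal RNA also differed, by 0.64 in the 3′ set against -0.11 and -0.04 in pairs 2 and 3; its part in these values was not tested.

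Subunits of the respiratory chain were slightly lower. Of 27 genes 24 were below 0, 12 were lower in 3 of 3 pairs and 0 higher, with a median of -0.03 and a range of -0.10 to 0.10. Collagens and matrix proteases had a median of -0.09, with 10 of 21 lower in 3 of 3 pairs and 2 higher. Cell cycle genes had a median of -0.01, with 10 of 29 lower and 3 higher in 3 of 3 pairs. Over all genes 14.8% were lower and 13.4% higher in 3 of 3 pairs. No member of these lists passed.

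**Figure D4:**
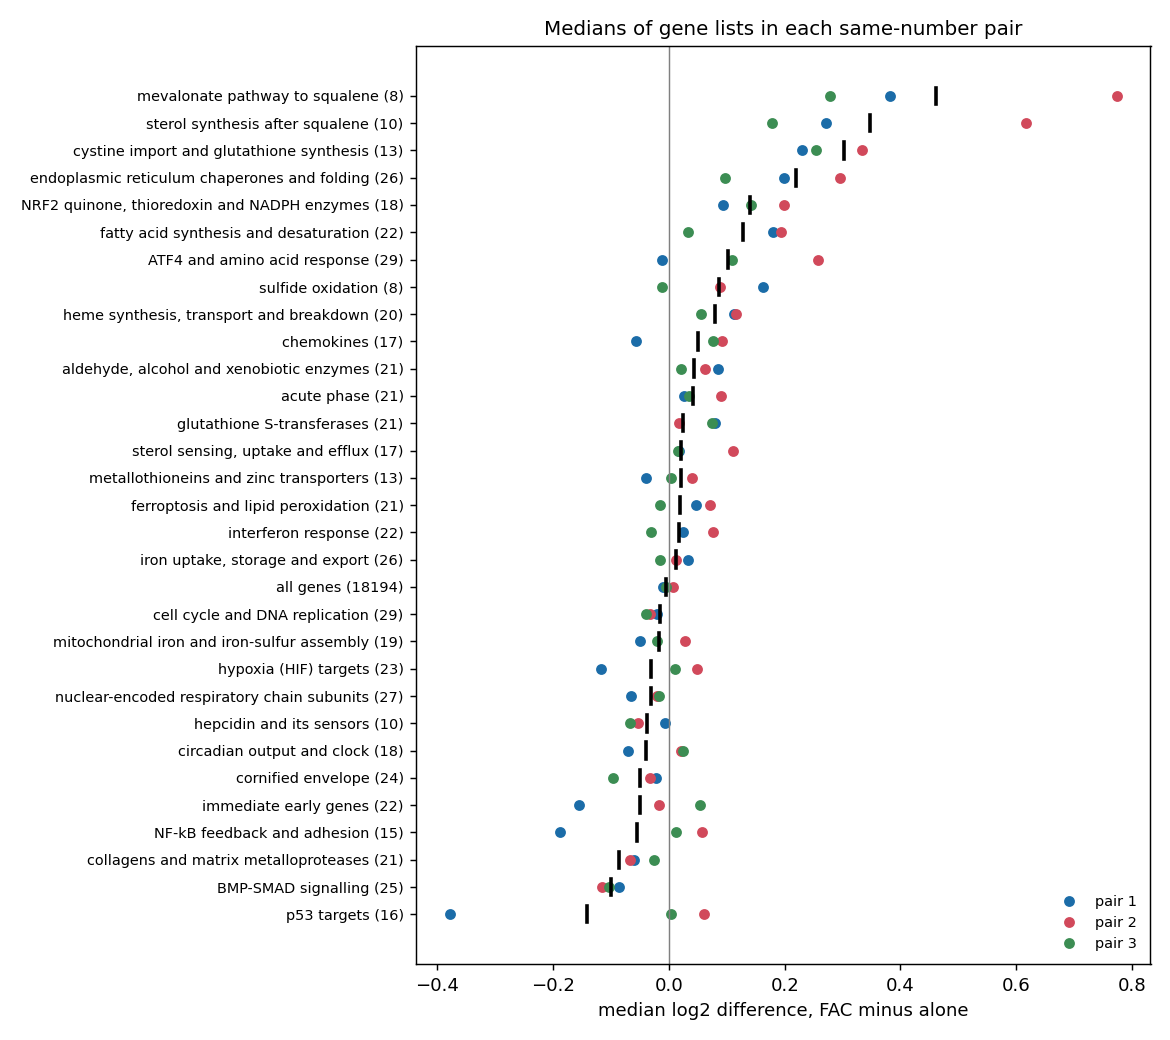
Median log2 difference FAC minus alone (x axis) of each gene list (y axis, number of genes in brackets) in the 3 same-number pairs (points); bars are the medians of the mean differences. The 2 parts of cholesterol synthesis and cystine import and glutathione synthesis lie highest, at 0.46, 0.35 and 0.30, and the p53 targets are spread by pair 1 at -0.38.

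The comparison of RAW_FAC with RAW gives a second measurement of iron on other arrays, in the presence of macrophages. There, 2749 genes were higher in 3 of 3 pairs (15.1%) and 2786 lower (15.3%). The 6 genes that passed without macrophages had the same sign in 6 of 6 pairs, and 4 of them, Tfrc, Blvrb, Slc7a11 and Sqor, also passed with macrophages, with the block, where 14 genes passed in all (0.0769%). Tfrc fell there by 1.20 ± 0.13 and Slc7a11 rose by 0.95 ± 0.11. Both comparisons took the spread of each gene from the same fit of 12 arrays. A gene with a small SE in the first therefore had it in the second too, and passing in both is not independent. Of the 12 higher genes with the smallest p without macrophages, 12 were higher in 3 of 3 pairs with them, and of the 12 lower genes, 10 were lower. The exceptions were Zfp750, at -0.39 ± 0.08 without macrophages and -0.03 with them, and Mir155hg, at -0.27 ± 0.06 and 0.06. Over the 18 cholesterol genes the median was 0.35 with macrophages, with 16 higher in 3 of 3 pairs, against 0.39 and 13 without.

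No difference between the iron effects with and without macrophages passed in limma for any gene (0.0%), with or without the block; 540 genes had an unadjusted p under 0.05 without it and 790 with it. Both comparisons carry the same replicate numbers. Over all genes the pair differences correlated at 0.437 between the pairs numbered 1, at 0.295 between those numbered 2 and at 0.0347 between those numbered 3. Between different numbers across the comparisons the values ran up to 0.173 (pair 2 without and pair 3 with macrophages). Within FAC against alone pairs 1 and 2 correlated at 0.104, 1 and 3 at 0.0179 and 2 and 3 at 0.182. These are correlations across genes, which are not independent replicates. The second comparison shares replicate numbers and the estimate of spread with the first, so the 2 cannot be treated as fully separate.

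**Figure D5:**
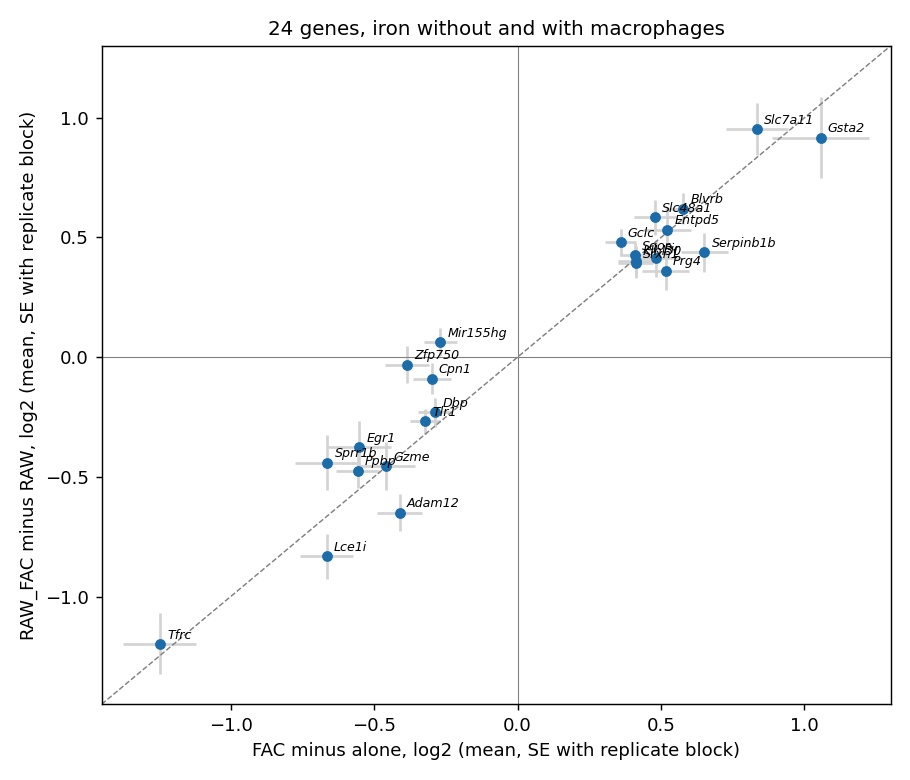
Mean log2 difference without macrophages (x axis) and with macrophages (y axis) for the 12 higher and 12 lower genes with the smallest p in FAC against alone; bars are the SE with the replicate block (3 arrays per group) and the dashed line marks equal values. Tfrc lies at -1.25 and -1.20, the 12 higher genes lie above 0 on both axes, and Mir155hg is the 1 gene on opposite sides of 0.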

How the data were processed

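RNA of the BNL CL.2 cells was isolated with a Qiagen RNeasy kit, per the labels, and hybridised to Affymetrix arrays. The authors deposited log2 signals from RMA in affy, per the submitters' processing notes, which name no versions. RMA makes the array distributions alike (array medians 5.63 to 5.68), so differences are relative to other genes. No further scaling was applied.

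Of 45101 probe sets, 34958 had 1 gene symbol, 932 several and 9211 none; each gene was represented by its brightest probe set over the 12 arrays (18194 genes). Groups came from the sample titles. limma 3.58.1 in R 4.3.3 (lmFit, eBayes) fitted group means over the 12 arrays, without a block as planned, and with the replicate number as a block. The titles do not say what the numbers stand for. Among residuals, the 18 array pairs of equal number correlated at 0.263 to 0.529 and the 36 others at -0.349 to -0.0149, so the numbers were taken to pair the arrays. The residuals of a group cancel out by construction, so positive values at equal number make the others negative on average. The gap between these ranges is therefore partly fixed. The median was 0.431 between groups of equal iron and 0.315 otherwise, so blocked p may be too small. The fits were tested on simulated data. Tables and plots used Python 3.11.15.

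Named genes were those past the threshold, the 12 with the smallest blocked p in each direction among those alike in 3 of 3 pairs, up to 4 per list, all cholesterol genes and fixed iron, BMP and stress genes; further ones are marked. The members and lists were chosen with earlier results of these data known. Of 662 entries in 35 lists, 618 were found. Alternatives were other blocks, filters, probe set choices, scalings, moderation, array weights and leaving out arrays or pairs.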

Additional observations from a re-analysis of the deposited data

Results flagged for a closer look

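For 5 of the 163 genes named by the rule, every pair moved one way without macrophages and the opposite way with them. These were Mir155hg, the host gene of a microRNA, at -0.27 without macrophages (0.06 with them), Ptprc, a leukocyte marker, at 0.16 (-0.09), Cxcl12, a chemokine, at 0.14 (-0.08), and the interferon genes Mx2, at -0.13 (0.08), and Gbp3, at -0.11 (0.27). For none of them did the difference between the iron effects pass in limma over all genes, with or without the block. The other probe sets of Cxcl12 gave 0.01 and -0.13 without macrophages, and that of Ptprc gave 0.01. Over all 18194 genes, 255 were higher in 3 of 3 pairs without macrophages and lower in 3 of 3 with them, and 176 the reverse. The share among the 163 named genes is near that over all genes, so the pattern does not set these 5 apart.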

How the results depend on the processing

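Without an additive block the count of genes past the threshold was 0 in each direction under every alternative run, including a random replicate block (961 genes with an unadjusted p under 0.05). With the replicate block it was 4 higher and 2 lower, 13 and 3 when low genes were also left out, and 2 and 2 with the mean of probe sets. Leaving out 1 array with the block gave 0 to 3 higher and 0 to 1 lower genes, leaving out a pair 0 and 0, and the 6 arrays of the comparison alone 0 and 0. Apart from these counts the block changed no call. The sign of Ddit3 (0.32) turned without FAC replicate 2 and no block, and its values with 1 array left out ran from -0.0809 to 0.713. Signs also turned for genes near 0. Bmp6 ran from -0.215 to 0.00439 with 1 array left out. Gpx4 was -0.0054 with the mean of probe sets, -0.0304 with the probe set of highest variance and -0.0064 to 0.0579 with arrays or pairs left out; without alone replicate 2, with the block, it was -0.000243. With 1 array left out the metallothionein genes Mt1 and Mt2 ran from -0.191 to 0.122 and from -0.448 to 0.290, and with the block they were 0.0222 and 0.0353 without alone replicate 1. Slc39a14, a zinc and iron importer, was 0.0497 with the mean of probe sets and 0.0913 with the probe set of highest variance. List medians moved by more than the spread between pairs in 19 instances. The number of arrays limits the precision.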
